A study of Mus musculus with 4 samples.

Results

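A group of 12 genes had at least 100 expected counts in both PD100 libraries and at most 3 in both PD800 libraries of *Terc* knock-out mouse embryonic stem cells. They were chosen by these counts from 53379 genes, of which 11778 reached 100 counts in both PD100 libraries: *Srgn*, *Fxyd3*, *Zscan4f*, *Hkdc1*, *Enpep*, *Ifi202b*, *Foxa2*, *Gm1976*, *Ugt2b34*, *Adora1*, *Rasef* and *Irf4*. An expected count is RSEM's estimate of the read pairs of a gene, and it shares out reads that fit more than one gene. Since the contrast between PD100 and PD800 chose the genes, their counts are a description and no test of them is made.

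RNA was sequenced from cells of DKO741, a single Terc-/- line that was made from E14 mouse embryonic stem cells by targeting both *Terc* alleles in turn with the TR-10 construct. Between these steps, an adenovirus carrying Cre was used to take out the selection marker. The cells were kept on mouse embryonic fibroblast feeders for maintenance and grown without feeders before nucleic acids were taken. PD100 cells precede and PD800 cells follow the activation of a telomerase-independent way of keeping telomeres, and both groups share the *Terc* knock-out. There were 2 libraries per group, named PD100 replicates 1 and 2 and PD800 replicates 1 and 2. The labels name total RNA and the results text of the study names mRNA, and the labels speak of 100 and 800 both as PDL and as passages. The study calls its samples biological duplicates, but neither it nor the labels say that they were separate cultures, so the p-values measure only the spread between these libraries, which may be technical. Sums of expected counts were 38492149 and 32454121 for PD100, against 37460820 and 33362106 for PD800. *Terc* itself, the targeted gene, had 1 count in PD100 replicate 1 and 0 in the other 3 libraries.

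Several of these genes are best known from lineages that leave the pluripotent state. In the mouse blastocyst, the inner cell mass separates into the epiblast, the source of embryonic stem cells, and the primitive endoderm, which forms the yolk sac endoderm and its basement membrane under Gata6, Gata4, Sox17 and Foxa2. Other genes of the group belong to epithelia, liver, lymphocytes or granule-bearing blood cells, and *Zscan4f* belongs to a burst of transcription in the 2-cell embryo that rare embryonic stem cells re-enter for a short time.

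Together, the 12 genes took 3433 counts in PD100 replicate 1 and 2981 in PD100 replicate 2, against 19.6 and 14.0 in the PD800 libraries. A level of 3 counts, the upper bound of the rule, corresponded to between 0.0743 and 0.0934 CPM (counts scaled to a common library size with edgeR's TMM factors) in the 4 libraries. This floor and the intervals below cover counting error only, since reads without molecular identifiers are not independent molecules. Of the genes, 11 were protein-coding, as were 94.1% of the genes with 100 counts in both PD100 libraries, and *Gm1976* was annotated as a processed transcript. The group was low to begin with. On the TPM scale, which corrects for gene length, the median of the 12 genes in PD100 cells was 2.11, and that of the 11778 genes from which they came was 8.45. The levels ran from 0.530 TPM for *Irf4*, above 0.416% of these genes, to 19.7 TPM for *Srgn*, above 73.8% of them.

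**Figure D1:**
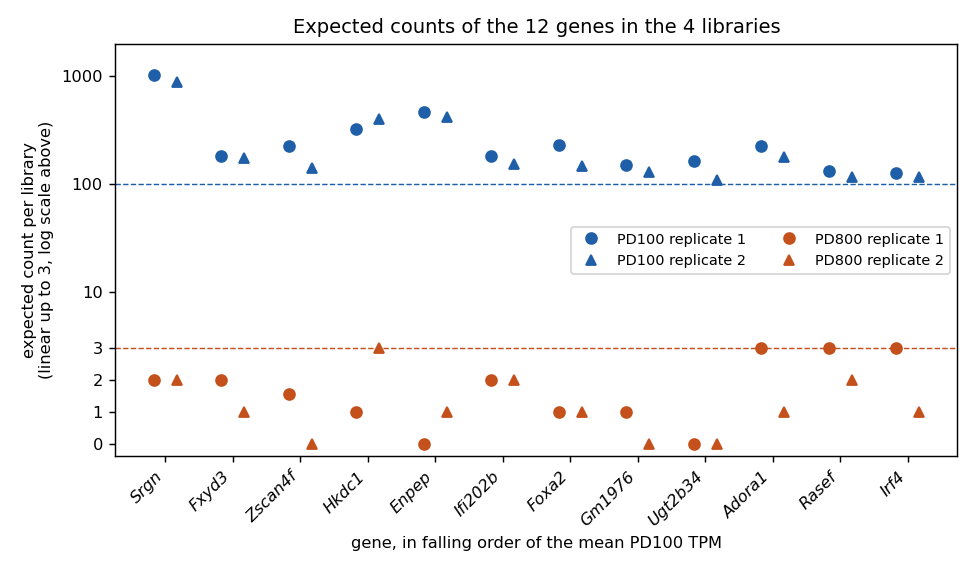
Expected counts (vertical axis, linear up to 3 and logarithmic above) of each of the 12 genes (horizontal axis) in the 4 libraries, one point per library. The dashed lines mark the bounds of the rule, 100 and 3; PD100 points lie between 108 and 1027, and the PD800 points lie between 0 and 3.

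*Foxa2* (chromosome 2, 148042877 to 148046969, minus strand) encodes a forkhead transcription factor that opens chromatin in the definitive and visceral endoderm, the node and the floor plate. It had 230 and 147 counts at PD100 but 1 in each PD800 library. Both PD100 libraries lay far above both PD800 libraries, while the PD100 replicates themselves differed 1.29-fold in CPM. In CPM, PD100 cells held 5.05 ± 0.915 (SD, n = 2), PD800 cells held 0.0295 ± 0.00233 (SD, n = 2), and their ratio was 174 with a 95% counting interval of 47.8 to 1442.

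Another 4 genes act in secretion or at the cell surface. *Srgn* (chromosome 10, 62493833 to 62527451, minus strand) encodes serglycin, the core protein of the proteoglycans that fill the secretory granules of blood cells, which was first cloned from a yolk sac tumour. It had 1027 and 896 counts at PD100 but 2 in each PD800 library. This was the most abundant gene of the group per length in PD100 cells, and its replicates were close to each other in both groups. At PD100 it had 26.1 ± 0.992 CPM (SD, n = 2), at PD800 it had 0.0589 ± 0.00467 CPM (SD, n = 2), and the ratio was 444 with a counting interval of 173 to 1630. *Enpep* (chromosome 3, 129269175 to 129332720, minus strand) encodes glutamyl aminopeptidase, a membrane enzyme that trims an acidic residue from the end of angiotensin II. It had 464 and 420 counts at PD100, against 0 and 1 at PD800. A single read pair was therefore assigned to it in both PD800 libraries together, so the ratio of 816 carried a wide counting interval of 146 to 32268. *Adora1* (chromosome 1, 134199223 to 134235431, minus strand), the Gi-coupled A1 adenosine receptor, had 225 and 177 counts at PD100, against 3 and 1 at PD800. *Fxyd3* (chromosome 7, 31068172 to 31076704, minus strand), a small single-span protein that regulates the sodium-potassium pump in epithelia, had 180 and 174 counts against 2 and 1. In each of them the groups were far apart, with ratios of 92.8 (counting interval 36.0 to 342) for *Adora1* and 109 (37.0 to 531) for *Fxyd3*.

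The metabolic enzymes were *Hkdc1* and *Ugt2b34*. *Hkdc1* (chromosome 10, 62383137 to 62422491, minus strand), a hexokinase-like enzyme of the first step of glucose use, had 327 and 404 counts at PD100, against 1 and 3 at PD800. The PD100 replicates differed 1.49-fold in CPM, the widest replicate difference of the 12 genes, and here replicate 2 was the higher one. Mean CPM was 10.1 ± 2.83 (SD, n = 2) at PD100, 0.0606 ± 0.0463 (SD, n = 2) at PD800, for a ratio of 169 with a counting interval of 65.6 to 621. *Ugt2b34* (chromosome 5, 86889767 to 86906937, minus strand) encodes a UDP-glucuronosyltransferase, an enzyme by which liver cells make lipophilic compounds soluble. With 163 and 108 counts at PD100, it was the only gene of the group with 0 counts in both PD800 libraries. From 3.64 ± 0.567 CPM (SD, n = 2) at PD100 it was at least 41.1-fold lower at PD800, against a floor of 3 counts per library, and it was not detected there at this depth.

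A pair of genes belonged to the immune and interferon response. *Irf4* (chromosome 13, 30749226 to 30766976, plus strand), an interferon regulatory factor that directs the maturation of B and T cells, had 126 and 117 counts at PD100, against 3 and 1 at PD800. *Ifi202b* (chromosome 1, 173962568 to 173982744, minus strand), an interferon-inducible HIN-domain protein whose level is known to differ between mouse strains, had 182 and 153 counts against 2 in each PD800 library. Neither gene had a PD800 library near a PD100 library. The ratios were 56.1 (counting interval 21.6 to 207) for *Irf4* and 77.3 (29.9 to 285) for *Ifi202b*. Per length, *Irf4* was the lowest gene of the group in PD100 cells, at 0.530 TPM in both libraries.

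The remaining genes were *Zscan4f*, *Rasef* and *Gm1976*. *Zscan4f* (chromosome 7, 11397915 to 11402318, plus strand), a SCAN-domain zinc finger gene of the 2-cell embryo whose products extend telomeres in embryonic stem cells, had 224 and 140 counts at PD100, against 1.57 and 0 at PD800. Its ratio of 168, taken from sums rounded to whole counts (1.57 was rounded up), had a counting interval of 46.3 to 1396. Its reads were divided between it and near-identical copies, described below. *Rasef* (chromosome 4, 73714579 to 73790994, minus strand), a Rab GTPase with calcium-binding EF hands, had 133 and 115 counts against 3 and 2. It kept the most counts of the group in PD800 cells and had the lowest of the 11 ratios, 45.8 (counting interval 19.4 to 142). *Gm1976* (chromosome 17, 94759944 to 94834799, minus strand), a non-coding transcript, had 151 and 129 counts against 1 and 0, a ratio of 258 (46.0 to 10245). Most counting intervals overlap each other, so the data hardly order these genes by the size of their decrease. Only the interval of *Rasef*, which ends at 142, lies below another, those of *Srgn* (from 173) and *Enpep* (from 146).

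The bounds of the rule fell within a continuous range of values. Just inside the lower bound for PD100 cells were *Ugt2b34* with 108 counts in its lower replicate, *Rasef* with 115 and *Irf4* with 117. Just outside it, and at 0 in both PD800 libraries, were *Slc34a2*, a phosphate transporter of epithelia, with 139 and 94 counts in PD100 cells, *Ptk6* with 100 and 93, and *Gm2446* with 137 and 92.2. At the other bound, *Rasef* was inside with 3 and 2 counts in PD800 cells, ahead of 5 genes tied at a sum of 4. Just outside were *Nog*, a secreted antagonist of bone morphogenetic proteins, with 3 and 4 counts in PD800 cells (157 and 130 in PD100), the keratin gene *Krt16* with 4 and 3 (102 and 110), and *Msln*, the surface protein mesothelin, with 4 and 3 (195 and 144). The rule turned round, with at most 3 counts in both PD100 libraries and at least 100 in both PD800 libraries, found 1 gene of the 11512 with 100 counts in both PD800 libraries. It was *Gm21818*, chosen after its values were seen, with 1.19 and 1.72 counts at PD100, against 143 and 108 at PD800. It lies in a region of chromosome 13 that shares sequence with the telomere-associated element of this study, so these reads may not be its own.

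The background for all counts of calls below is that 1686 of 19148 tested genes, 8.81%, were called lower in PD800 cells by edgeR's quasi-likelihood test (Benjamini-Hochberg adjusted p below 0.01, more than 2-fold), and 1202, or 6.28%, were higher. All 12 genes of the rule passed edgeR's expression filter, and they passed it through PD100 cells alone, so their own calls are not counted in what follows. Among genes with 100 counts in both PD100 libraries, 1138, or 9.66%, were called lower, and the 12 genes, which the rule took by the same contrast, were 0.102% of these 11778, so nothing is read from that share. Higher genes made up 41.6% of all calls by edgeR and 24.4% with limma on log2(TPM + 1), where the median of all genes lay at -0.12 in place of 0.01. The smallest p that exact permutation can reach for a gene with 2 libraries in each group is 0.333, and the smaller p-values come from the variance that edgeR shares among genes.

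Relatives of these genes did not share one pattern. A closest paralog by protein sequence (blastp, at least 30% identity over at least 50% of the protein) was found for 9 of the 11 protein-coding genes. Of these 9 paralogs, 7 had enough counts for a test, 2 were called lower and 1 was called higher. *Ifi204*, 53.4% identical to *Ifi202b*, had 112 and 69.0 counts at PD100, against 17.1 and 21.9 at PD800 (log2 fold change -2.07, standard error 0.29, edgeR adjusted p = 0.00245). *Zscan4-ps2*, 99.2% identical to *Zscan4f* in its predicted protein, had 124 and 114 counts against 2.28 and 6.86 (log2 fold change -4.57, standard error 0.42, adjusted p = 0.000523).

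Further close relatives were not called lower. *Hk1*, which makes the widely used hexokinase and is 69.3% identical to *Hkdc1*, lies next to it on chromosome 10. It had 1259 and 1177 counts at PD100, against 1011 and 980 at PD800. The groups were close and no call was made (log2 fold change -0.18, standard error 0.09, edgeR adjusted p = 0.172), and for *Hk2* the value was 0.25 (adjusted p = 0.0825). *Irf8*, 43.7% identical to *Irf4*, had 65 and 62 counts against 52 and 40. *Fxyd6*, 43.2% identical to *Fxyd3*, had 1868 and 1729 against 1194 and 1098. *Irf8* did not pass the test (adjusted p = 0.231), and the log2 fold change of -0.54 of *Fxyd6* passed it in p (0.00403, edgeR) but was less than 2-fold. *Anpep*, the neutral aminopeptidase and 32.8% identical to *Enpep*, had 362 and 303 counts against 227 and 211, a log2 fold change of -0.49 (adjusted p = 0.0119). *Adora2a*, 51.0% identical to *Adora1*, had 10 and 6 counts against 6 and 7, and *Ugt2b1*, 70.1% identical to *Ugt2b34*, was at 0 except for 1 count in PD800 replicate 2, and neither could be tested.

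*Foxa1*, 51.6% identical to *Foxa2*, was the paralog called higher. It had 3 and 1 counts at PD100, against 15 and 13 at PD800 (log2 fold change 2.85, standard error 0.53, edgeR adjusted p = 0.00693). So the paralog was near the floor where *Foxa2* was present and rose, to a low level, where *Foxa2* was not detected above 1 count. The call rested on few counts and was lost with DESeq2 (2.93), with limma on log2(TPM + 1) (0.0962) and without PD100 replicate 2 (2.39), PD800 replicate 1 (2.83) or PD800 replicate 2 (2.88). The closest protein to *Rasef*, *Cracr2a*, was 28.6% identical and so fell short of the limit; it had 32 and 28.6 counts at PD100, against 58 and 51 at PD800. For *Srgn*, no related protein was found at all.

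Whole families gave the same mixture. In the 10 families to which the genes with relatives belong, chosen after the 12 genes were known, 38 other genes were tested, 16 were called lower and 2 higher, and 7 of the 16 were *Zscan4* copies. Of the 6 tested relatives of *Ifi202b*, 3 were called lower, *Ifi204*, *Ifi211* (log2 fold change -2.23) and *Ifi205* (-3.44). *Ifi205* had 20.7 and 28.2 counts against 1.34 and 3.28. The call of *Ifi205* was lost without PD800 replicate 1 (-2.80) and that of *Ifi211* without PD800 replicate 2 (-1.89). Among the relatives of *Irf4*, *Irf1* (-1.27) and *Irf2* (-2.63) were called lower. *Irf1* (1617 and 1386 counts at PD100, against 615 and 534 at PD800) stayed far above the floor, whereas *Irf2* came nearer to it, with 74 and 49 counts at PD100, against 10 and 8 at PD800.

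In the family of *Enpep*, the M1 aminopeptidases, 1 of 7 tested relatives was called lower and 1 higher. *Erap1*, which trims peptides for antigen presentation, went from 670 and 459 counts to 112 and 77.3, a log2 fold change of -2.46, and *Lta4h*, the leukotriene A4 hydrolase, went from 2437 and 1880 to 5120 and 4437, a log2 fold change of 1.27. The only tested relative of *Adora1* was *Adora2b*, with 89 and 68 counts against 23 and 24 (log2 fold change -1.61), which was no longer called without PD800 replicate 1 (-1.50). Of the 3 tested relatives of *Fxyd3*, *Fxyd5* was called lower, with 76 and 52 counts against 26 and 23 (-1.26). That call was lost with DESeq2 (-1.27) and without PD100 replicate 1 (-1.11), PD800 replicate 1 (-1.26) or PD800 replicate 2 (-1.24). *Foxa3*, the third gene of the *Foxa2* family, had 167 and 128 counts against 108 and 95 (-0.42, adjusted p = 0.0704 from edgeR), and 0 of 3 tested hexokinase relatives of *Hkdc1* were called in either direction. *Ugt2b34* stood alone in its family. The 9 other annotated *Ugt2* genes had at most 3 counts in each of the 4 libraries, and 7 of them were at 0 throughout.

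For some genes the division of reads limits what the counts show. The longest *Zscan4f* transcript shares between 97.4% and 99.8% of its bases with 8 other *Zscan4* genes and pseudogenes over at least 95.5% of its length. All 7 of these that could be tested were called lower. So *Zscan4f* is uncertain as a single gene. The annotated *Fxyd3* locus overlaps *Lgi4* on the opposite strand, and 63.9% of the longest *Fxyd3* transcript matches *Lgi4* at 100% of bases. *Lgi4* was given 4.60 and 6.21 counts at PD100, against 0 and 2 at PD800, and how many of the shared reads belong to which gene is not known from these counts. *Gm1976* is 90.9% identical to *Ndc80* over 48.2% of its longest transcript, and *Ndc80* had 1848 and 1566 counts against 1815 and 1610. *Gm1976* also overlaps *2700099C18Rik* on the opposite strand and an annotated rRNA gene, *Gm23964*, and *Adora1* and *Enpep* each overlap 1 annotated gene, *Mybph* and *Gm42628*. The study shows some of its RNA reads by direction of transcription, but the counting is not stated to use strand, so reads of such partners cannot be told apart.

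The neighbourhoods of the genes were more often lower than the genome as a whole. Of 93 tested genes within 500 kb of one of the 12 genes (measured between their lower coordinates, as are the distances below unless said), 29 were called lower, 31.2% against the 8.81% of all tested genes, and 5 were called higher. Their median log2 fold change was -0.55, and that of all tested genes was 0.01. Within 100 kb, 13 of 26 were called lower, and within 1 Mb 35 of 193, or 18.1%. The share fell with distance, but the genes of a neighbourhood are not independent of each other, and the count came largely from clusters of related genes and from a few places.

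The end of chromosome 17 was the clearest of these places. *Gm1976* is one of the last genes annotated there, and its 4 tested neighbours were all called lower. *Mettl4*, a methyltransferase gene, had 870 and 752 counts in PD100 cells and 4 in each PD800 library, just above the bound of the rule. *2700099C18Rik*, a transcribed pseudogene, had 286 and 247 counts against 2 and 6, and *Gm20939*, the last annotated gene, had 527 and 347 against 9 and 13. The 4 libraries thus split the same way at each gene of the run, with PD800 values at or near the floor. The log2 fold changes were -7.51 for *Mettl4* (standard error 0.17, adjusted p = 3.03e-05 from edgeR), -5.90 for *2700099C18Rik* (standard error 0.34, adjusted p = 0.000113) and -5.16 for *Gm20939* (standard error 0.25, adjusted p = 7.69e-05). *Gm26734* had 12 and 10 counts in PD100 cells and 0 in both PD800 libraries, at least 3.38-fold lower. Apart from *Gm1976*, which was chosen by this contrast, these 4 were all the tested genes from *Mettl4*, whose start lies at 94722590, to the end of the chromosome. The next tested gene inwards, *Gm6741* at 91236811, lay 3.64 Mb from the last annotated base and was not called (0.44, adjusted p = 0.286). Whether these genes are still present in the DNA of PD800 cells was not tested.

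**Figure D2:**
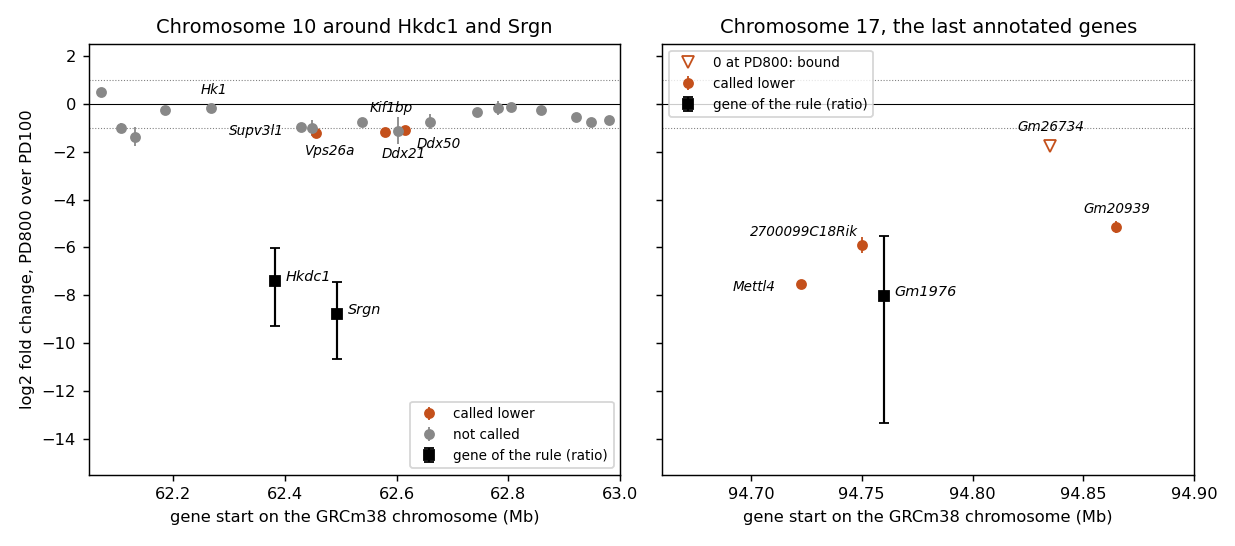
Log2 fold change of PD800 over PD100 (vertical axis) against the gene start in Mb (horizontal axis) around *Hkdc1* and *Srgn* on chromosome 10 and at the end of chromosome 17; circles are edgeR estimates with their standard errors, squares are count ratios with 95% counting intervals, and the open triangle is a lower bound for a gene at 0. *Hkdc1* and *Srgn* lie far below all their neighbours, of which *Hk1* is at -0.18 and *Vps26a* at -1.23, whereas *Gm1976* lies among neighbours that were also far lower, such as *Mettl4* at -7.51.

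Chromosome 10 showed the other arrangement. *Hkdc1* and *Srgn* lie on the same strand, 71.3 kb apart from end to start, and 3 tested genes lie between them. *Vps26a*, a part of the retromer that sorts endosomal cargo, had 2320 and 1769 counts at PD100, against 884 and 719 at PD800, and *Supv3l1*, a mitochondrial RNA helicase, had 1897 and 1607 against 869 and 771. Both were lower in both PD800 libraries than in either PD100 library, though far from the floor. The log2 fold changes were -1.23 (standard error 0.09, adjusted p = 0.000236 from edgeR) for *Vps26a* and -0.98 (standard error 0.07, adjusted p = 0.000258) for *Supv3l1*, the latter just short of a 2-fold change. Beyond *Srgn*, *Kif1bp* had a log2 fold change of -0.77, *Ddx21* of -1.19 and *Ddx50* of -1.08, the last of which was not called without PD100 replicate 2 (-0.90). Of the 3 tested genes in between and the next 5, none lay below -1.23. So the 2 genes at the floor were set among genes that changed far less, and on the other side *Hk1* differed little. Farther out on that side, *Neurog3* (29.3 and 18.7 counts against 11.3 and 6.11) and *Fam241b* (234 and 235 against 95.7 and 120) were lower without being called.

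Around *Foxa2* and *Ifi202b*, neighbours were lower as well. The 2 tested neighbours of *Foxa2* were both called lower. The non-coding gene *9030622O22Rik*, which lies just downstream of *Foxa2* on the same strand, had 14 and 16 counts in PD100 cells and 0 in both PD800 libraries, at least 4.67-fold lower, and *Thbd*, which encodes thrombomodulin, had 589 and 473 counts against 22 and 32 (log2 fold change -4.17). Of 6 tested genes around *Ifi202b*, the 3 called lower were the relatives named above. Around *Zscan4f*, 6 of 7 were called lower, all of them *Zscan4* copies.

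Elsewhere the neighbours were mixed. Near *Enpep*, *Elovl6*, an elongase of fatty acids, had 4299 and 3099 against 10136 and 8881 (1.49), and 3 of 6 tested genes were called higher. Near *Irf4*, *Agtr1a*, an angiotensin II receptor gene, had 64 and 40 counts against 5 and 6 (-3.08), but the flanking genes *Dusp22* (-0.64) and *Exoc2* (0.43) changed less than 2-fold and in opposite directions. Near *Adora1*, *Chit1* had 36 and 33 counts against 2 and 0 and *Btg2* 3105 and 2628 against 1282 and 1158 (-1.12), and the other 12 of 14 tested genes were not called. Near *Fxyd3*, 7 of 27 tested genes were called lower and 2 higher, *Ffar3* and *Gm37292*, both with few counts, and the lower ones included a row of genes of the outer skin layers, *Sbsn* (-2.65), *Dmkn* (-2.82) and *Krtdap* (-4.51), and the lipoprotein receptor gene *Lsr* (-1.09). *Ugt2b34* had 2 tested neighbours, *Ythdc1* with 4545 and 3509 counts against 4355 and 3871 and *Gm5869* with 109 and 180 against 111 and 130, and neither was called. *Rasef* had no tested gene within 500 kb of its lower coordinate. Thus genes at the floor lay both in places where neighbours were lower and in places where they were not.

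The promoters were compared on sequences from RefSeq (GRCm38.p6), which give 250 bases before and 50 after the start of a gene. One was taken for each gene, nearest to its annotated start, and all 12 genes and 8837 of the 11778 genes with 100 counts in both PD100 libraries had one. For *Rasef* the RefSeq start lay 392 bases and for *Ifi202b* 100 bases from the GENCODE start, and for the others at most 34. The promoters of the group were poorer in CpG than those of the 8837 genes, and less so against all genes. The median ratio of observed to expected CpG was 0.409 for the 12 genes, 0.788 for the 8837 genes and 0.520 for the 20030 genes of the files with a promoter sequence. In 9 of 12 the ratio was under 0.5, against 14.9% of the 8837 genes and 48.7% of the 20030. Low genes and genes of few tissues commonly have such promoters, and the comparison was not matched for level. The letters TATAAA of a TATA box occurred, on either strand and anywhere in the window, in 5 of the 12 promoters. These were the promoters of *Srgn*, *Zscan4f*, *Enpep*, *Ifi202b* and *Irf4*, against 6.19% of the 8837 and 13.2% of the 20030. A match at any position was counted, so it need not be a TATA box. For *Ifi202b* it did not lie in the 250 bases before the start. The forkhead motif TGTTTAC was in 0 of 12 and in 2.34% of the 8837 and 3.11% of the 20030, and the GATA motif AGATAA in 1, against 5.47% and 10.1%. The GC box GGGCGG was in 5, or 41.7%, a share below the 68.2% of the 8837 but close to the 43.3% of the 20030 (both strands searched). These matches describe the letters of the windows and no binding.

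Printed below, each 5′ to 3′ on the strand of the gene with CG in capitals, are the 250 bases before the start of the gene without any CpG, *Ugt2b34* (chr5:86906938-86907187, minus strand), of the 2 neighbours on chromosome 10, *Srgn* (chr10:62527446-62527695, minus strand) and *Hkdc1* (chr10:62422458-62422707, minus strand), and of a gene with many, *Adora1* (chr1:134235458-134235707, minus strand). They hold 0, 5, 6 and 19 CpG, so genes at the floor differed in this respect, and 5 or 6 were also found before *Fxyd3*, *Gm1976*, *Enpep* and *Foxa2*.
Ugt2b34: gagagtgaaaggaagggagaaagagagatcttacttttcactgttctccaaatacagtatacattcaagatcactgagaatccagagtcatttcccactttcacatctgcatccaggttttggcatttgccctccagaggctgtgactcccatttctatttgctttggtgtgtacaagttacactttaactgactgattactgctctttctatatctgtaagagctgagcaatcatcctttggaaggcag
Srgn: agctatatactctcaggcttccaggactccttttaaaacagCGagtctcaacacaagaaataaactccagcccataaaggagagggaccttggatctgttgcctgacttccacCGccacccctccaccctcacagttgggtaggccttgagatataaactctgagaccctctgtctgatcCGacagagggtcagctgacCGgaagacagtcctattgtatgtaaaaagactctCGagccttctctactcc
Hkdc1: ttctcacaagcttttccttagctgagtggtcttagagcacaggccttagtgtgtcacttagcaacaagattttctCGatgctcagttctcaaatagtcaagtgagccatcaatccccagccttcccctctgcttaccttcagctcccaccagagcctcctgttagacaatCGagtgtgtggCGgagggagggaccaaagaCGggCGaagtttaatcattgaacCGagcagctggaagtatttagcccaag
Adora1: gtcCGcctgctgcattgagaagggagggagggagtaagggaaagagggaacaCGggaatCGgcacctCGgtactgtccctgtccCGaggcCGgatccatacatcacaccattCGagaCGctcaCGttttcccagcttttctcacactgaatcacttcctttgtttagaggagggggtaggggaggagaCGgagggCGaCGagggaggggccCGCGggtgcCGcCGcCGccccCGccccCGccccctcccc

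As to lineage, 3 of the 12 genes were on lists of marker genes and pathways, *Foxa2* among primitive endoderm markers, *Zscan4f* among genes of the 2-cell state, and *Enpep* among peptidases of the renin-angiotensin system. Apart from the 12 genes, the 17 lists held 242 tested genes, of which 86, or 35.5%, were called lower and 37 higher.

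The primitive endoderm list had the largest share of genes called lower. Without *Foxa2*, 18 of its 20 tested genes were called lower and 0 higher, and the median log2 fold change was -3.47. *Sox17*, which acts with *Foxa2* in endoderm, had 711 and 581 counts in PD100 cells and 9 in each PD800 library (log2 fold change -6.03, standard error 0.15, edgeR adjusted p = 3.03e-05). *Pdgfra*, the receptor that marks primitive endoderm, had 1241 and 1104 counts against 40 and 31 (-4.93). *Gata4* had 1451 and 842 counts against 146 and 136 (-2.88), and *Gata6* was lower by -3.66 on the log2 scale. Unlike *Foxa2*, each of these 4 was still measured above the floor in both PD800 libraries. The whole list summed to 4403 and 4899 CPM in the PD100 libraries and to 812 and 836 CPM in the PD800 libraries. Its most abundant gene was the basement membrane collagen *Col4a1*, with 42260 and 41690 counts against 1784 and 1841 (-4.42), and 0 of the 24 genes were at 0 in all libraries, though the later yolk sac markers *Ttr* and *Afp* each had 3 and 4 counts at PD100 but 0 at PD800. In bulk RNA, fewer cells of a type and less RNA per cell cannot be told apart. Whether a loss of endoderm-like cells had a part in the values of *Foxa2* or of the other genes was not tested.

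Markers of other cells moved too. The trophoblast list had 8 of 13 tested genes called lower and 2 higher, with sums of 818 and 905 CPM in PD100 cells and 91.7 and 91.5 CPM in PD800 cells, and *Krt8* was its most abundant gene. The defining marker *Elf5* had 8 and 9 counts at PD100, against 4 and 1 at PD800. The fibroblast feeder list had 13 of 19 called lower and 0 higher, with sums of 577 and 607 CPM against 344 and 301 CPM, of which *Fn1* made up most. Of its 21 genes, 19 had enough counts for a test, but the markers *Lum* and *Fap* were at or near 0. *Lum* had 0 counts except 1 in PD800 replicate 2, and *Fap* had 5 and 1 at PD100, against 1 and 0 at PD800. The endothelial and blood list, to which the known sites of *Srgn* point, had 4 of 13 called lower (2 without PD800 replicate 1) and 1 higher, with sums of 110 and 105 CPM against 110 and 106 CPM. It was thus at a similar summed level in the groups, with *Pecam1* the most abundant, while *Ptprc*, the common antigen of white blood cells, had 31 and 28 counts against 3 and 7. The part of any of these cell types in the values of the 12 genes was not tested.

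Markers of the stem cells themselves were in part higher. Of 16 pluripotency genes, 0 were called lower (0 by DESeq2 as well) and 8 higher, with sums of 2468 and 2822 CPM in PD100 cells and 4587 and 4693 CPM in PD800 cells, and *Dppa5a* was the most abundant. The formative and primed epiblast list had 5 of 8 called lower (3 without PD800 replicate 1) and 0 higher, the mesendoderm list 0 of 4 lower and 1 higher, and the neural list 1 of 7 lower and 4 higher. Their sums were 739 and 709 CPM against 623 and 604 CPM for the formative list, 2.58 and 1.95 against 2.64 and 2.71 for the mesendoderm list, and 130 and 152 against 168 and 171 for the neural list. *Tdgf1*, *Gsc* and *Tubb3* were their most abundant genes, and *Cer1*, *Msgn1* and *Dcx* were at 0 in all 4 libraries. In the 2-cell list, 7 of 11 tested genes other than *Zscan4f* were called lower and 2 higher, the latter being *Tcstv1* and *Tcstv3*. Among the lower ones were *Zscan4a*, *Zscan4c*, *Zscan4d* and *Zscan4e*. These are near-identical copies between which the reads of *Zscan4f* were divided, so their calls are not separate from it. The sum of the list, 82.0 and 83.1 CPM against 79.4 and 76.6 CPM, was dominated by *Eif1ad*, and *Tdpoz1* was at 0 throughout. By these calls, *Zscan4f* and genes of the same state did not all move one way. Whether the reads given to *Tcstv1* and *Tcstv3* are their own was not tested.

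**Figure D3:**
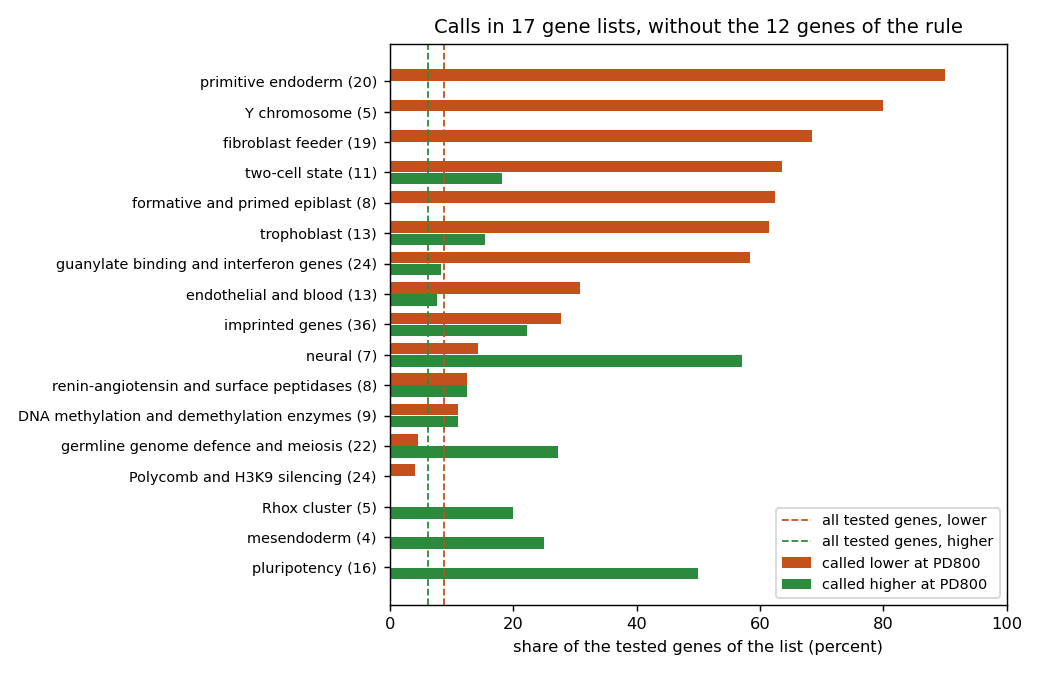
Share of tested genes called lower or higher in PD800 cells (horizontal axis, percent) in each of 17 lists (vertical axis, number of tested genes in brackets), without the 12 genes of the rule. Dashed lines mark the shares over all tested genes, 8.81% lower and 6.28% higher; the primitive endoderm list has the highest share called lower, 18 of 20 tested genes.

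Lists of function gave the setting of the other genes. Beside *Irf4* and *Ifi202b*, 14 of 24 tested guanylate binding and interferon genes were called lower and 2 higher, with a median of -1.47. In the renin-angiotensin list, 1 of 8 tested genes other than *Enpep* was called lower, *Agtr1a*, and 1 higher, *Mme*, so the enzyme reached the floor while the median of its list was -0.12. Of 24 Polycomb and H3K9 silencing genes, 1 was called lower, *Ezh1*, whose call was lost without PD800 replicate 2, and 0 were called higher. Of 9 genes of DNA methylation and demethylation, 1 was lower, *Dnmt3b*, and 1 higher, *Tet2*. Each was 11.1% of these, beside 8.81% lower and 6.28% higher over all tested genes. Of 36 imprinted genes, 10 were lower and 8 higher. The germline list had 1 of 22 lower, *Tdrd1*, which became 2 without PD100 replicate 2, and 6 higher. The Rhox list had 0 of 5 lower (0 by DESeq2 as well) and 1 higher, *Rhox10*. Of 5 tested Y chromosome genes, 4 were lower (sums of 18.1 and 20.3 CPM at PD100, against 1.89 and 1.81 at PD800), *Eif2s3y*, *Uba1y*, *Uty* and *Ddx3y*, but none was among the 12: in PD800 cells *Uba1y* came closest, with 70.1 and 48.9 counts at PD100, against 0 and 2 at PD800.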

How the data were processed

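Bulk RNA of 4 DKO741 libraries was grouped by the population doubling in the labels. The authors aligned reads to mm10 (STAR 2.5.3a and RSEM 1.3.0 in the submitters' processing notes) and deposited, per gene, the expected count, not scaled for depth, and TPM, scaled for length and to a common total. Their FPKM was not used. The annotation release and use of strand are not given in the sources used here. Coordinates came from GENCODE M21 (GRCm38), which held 53274 of 53379 identifiers.

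The members and lists were chosen with earlier results of these data known. The genes named were all 12 members, their closest paralogs, the genes just outside the bounds and *Terc*; families, neighbours and single list genes were chosen after their values were seen. Expected counts were rounded and tested with edgeR 4.0.16 (R 4.3.3): filterByExpr with a minimum count of 10, TMM, the quasi-likelihood test and Benjamini-Hochberg adjustment over 19148 genes. The test was checked on simulated data. Ratios are of summed counts, rounded to whole numbers, over summed scaled totals, with exact conditional binomial intervals. Paralogs and copies were found with BLAST 2.17.0. Alternatives were other bounds, DESeq2 1.42.0, its size factors, no filter, the replicate number as a block, limma 3.58.1 on log2(TPM + 1), other windows and identities, and each library left out. Replicates varied more than sampling gives (chi-square over degrees of freedom 66.3 in PD100, 10.2 in PD800).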

Additional observations from a re-analysis of the deposited data

How the results depend on the processing

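The number of genes at the floor depended on the bounds. In place of 12 it was 1, 4 or 33 with at most 0, 1 or 10 counts in PD800 cells, and 22 or 3 with at least 50 or 200 counts in PD100 cells, by the construction of the rule. With the bounds on CPM it was 13, of which 11 were among the 12: *Hkdc1* left, and *Gm2446* and *Slc34a2* came in. With a library left out it was 13 to 19, the highest without PD800 replicate 1. Leaving out a library only takes a condition away from the rule, so all 12 had to remain and the number could not fall. Nothing on stability is read from it. Genes called ran from 1316 to 1872 lower and from 924 to 1526 higher with a library left out, where the lone library of a group is assumed to vary like the other group. With limma on log2(TPM + 1), 920 were lower and 297 higher, nearby genes called lower were 15, paralogs 1 and genes of the lists 55, among them 1 of 11 tested 2-cell genes, 1 of 5 on the Y chromosome, 6 of 19 fibroblast genes and 0 endothelial, germline and renin-angiotensin genes (the cause was not tested). At an adjusted p under 0.05 with no fold threshold, 4515 were lower and 4224 higher. Nearby genes called lower were 13 with a window of 100 kb, which holds fewer genes, and 23 to 30 with a library left out. Paralogs called lower stayed at 2 and genes of the lists at 75 to 89 with a library left out.

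The replicate numbers are shared between the groups, but nothing ties same-numbered libraries to a common culture (correlation of their deviations across genes 0.265). Taking the replicate block into the model made 1956 genes lower and 1461 higher, among them 31 nearby genes, 2 paralogs and 89 genes of the lists called lower. Of 31 called genes outside the group that were followed through the alternatives, not all those named, the block ended the call of 0, DESeq2 of 2 and limma on log2(TPM + 1) of 9, *Irf2* (-0.65), *Ifi204* (-0.67), *Ifi205* (-0.36), *Ifi211* (-0.51), *Foxa1* (0.0962), *Fxyd5* (-0.75), *Adora2b* (-0.62), *Agtr1a* (-0.49) and *Chit1* (-0.51), where adding 1 to TPM shrinks the changes of low genes. Reversed values belonged to genes that were not called: *Cracr2a* (-0.0310), *Ythdc1* (-0.0291) and *Ndc80* (-0.11) with limma, *Gm6741* without PD800 replicate 1 (-0.10, in a range of -0.10 to 0.84 with a library left out), and *Gm5869* without PD100 replicate 2 (0.37) or PD800 replicate 1 (0.0135, in a range of -0.60 to 0.37). At this depth, a gene under 3 counts in a library cannot be told from one that is not transcribed.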
